A study of Homo sapiens with 24 samples.

Results

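Cells of the human embryonic kidney line HEK were given a DNA minor groove binding ligand at 50 uM followed 1 h later by 2 Gy of ionizing radiation, and were set against HEK cells left untreated. Members were chosen by the treatment in the array titles. They are 6 samples of the 12 in the study, 3 given both treatments and 3 untreated, measured on 12 of its 24 arrays. All cells had been plated 24 h before the experiment, and RNA was taken after a further 4 h of incubation. The other 6 samples received the ligand alone or radiation alone. The labels give the compound no other name than minor groove binding ligand. Each sample was hybridized as Cy3-labelled amplified RNA to 2 single-colour arrays, lettered A and B, that share 0 probe identifiers and carry 19700 probes each. What the letters stand for is not stated. An A and a B array of equal treatment and number were treated as 1 sample. The replicate numbers 1 to 3 are shared by all treatments. No label says that they were separate cultures, so the p-values reflect no more than the spread among these samples, and that spread may be technical.

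Small molecules of this kind lie along the narrow groove of the DNA double helix, mostly at AT-rich stretches. Some of them protect DNA from radiation or, in other settings, disturb topoisomerases and transcription factors that bind the same groove. Ionizing radiation breaks DNA strands. In cells with an intact response it activates ATM and p53, with induction of cell cycle inhibitors and repair genes over the following hours. Common HEK sublines carry adenoviral E1 proteins that interfere with p53, and the labels name the line only as HEK. The files give probe identifiers without genes, and 0 of the 39400 identifiers matched the RefSeq gene table, so transcripts are given as array probes. Neither the markers of the cell line nor the p53 and repair genes were analysed here.

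The arrays differed in brightness and in which number they came from before any treatment difference was looked at. Median probe intensity on the 12 arrays ran from 166.5 to 677 units. Among the arrays of the single treatments, that of radiation number 3 on letter A was dimmer still, with a median of 34.5 units. It enters the shared normalization, the standard errors and the radiation means of letter A. In number 2 the arrays of cells given both treatments were dimmer than their untreated partners, at 0.379 times the untreated median on letter A and 0.351 times on letter B. The ratios were 0.817 and 0.849 in number 1, and 0.762 and 1.11 in number 3. Averaged over the letters, the log2 ratio was -0.61 ± 0.73 (SD, n = 3 pairs), with an exact sign-flip permutation p of 0.25, two-sided, the smallest that 3 pairs allow. In number 2 the arrays of radiation alone were about as dim as those of both treatments. Their medians were 250 and 179 units on letters A and B, against 248 and 186. Those of the ligand alone, 582 and 488 units, were nearer the untreated 654 and 531. Only 88 of 236400 probe values on the 12 arrays compared were listed as not detected. In numbers 1 and 2, which also listed empty spots, 96.4% to 99.9% of probes were brighter than the 95th percentile of the empty spots. Plant control spots on the same arrays, which have no human target, set a higher floor. Only 76.2% to 85.2% of probes were brighter than the median plant control.

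No probe separated cells given both treatments from untreated cells beyond the spread between samples. In limma with replicate number as a block, 0 of 39400 probes (0%) had an adjusted p under 0.05, and the smallest adjusted p was 0.887. At an unadjusted p under 0.05 there were 1630 probes (4.14%). After both treatments 776 of them were higher (1.97%) and 854 lower (2.17%). Across probes the log2 differences spread around a median of -0.02 with a standard deviation of 0.36. The fit without the block also passed 0 probes and held 211 at an unadjusted p under 0.05, 119 higher and 92 lower, so the block changed the second count and not the first. Without number 3 as a whole 0 probes passed. Without only its arrays of cells given both treatments, 4 probes passed in limma, 3 higher and 1 lower, with log2 differences from -3.26 to 3.25, and 3111 had an unadjusted p under 0.05. Without its untreated arrays 1 other probe passed, with a log2 difference of 2.88. With intensities left as deposited the median log2 difference of all probes was -0.62, and 10 probes passed, 1 higher and 9 lower. On that scale the split at an unadjusted p under 0.05 was 131 higher and 1563 lower.

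The precision of the arrays sets what this null result covers. The 95% confidence interval of a probe's log2 difference reached a median of 0.49 log2 units to either side, a 1.4-fold change. For 79.2% of probes the whole interval lay within a 2-fold change in either direction, and for the other 20.8% it did not. Letter B was the more precise, with a median standard error of 0.19 log2 units and 83.6% of intervals within 2-fold. On letter A these values were 0.24 and 74.7%. These intervals are per probe and are not adjusted for the number of probes. They hold for the fit with the replicate block only. Without the block the standard error went from 0.60 to 1.31 for obshum40K:A#05612, a probe named below, and from 1.01 to 0.996 for obshum40K:B#38157.

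**Figure D1:**
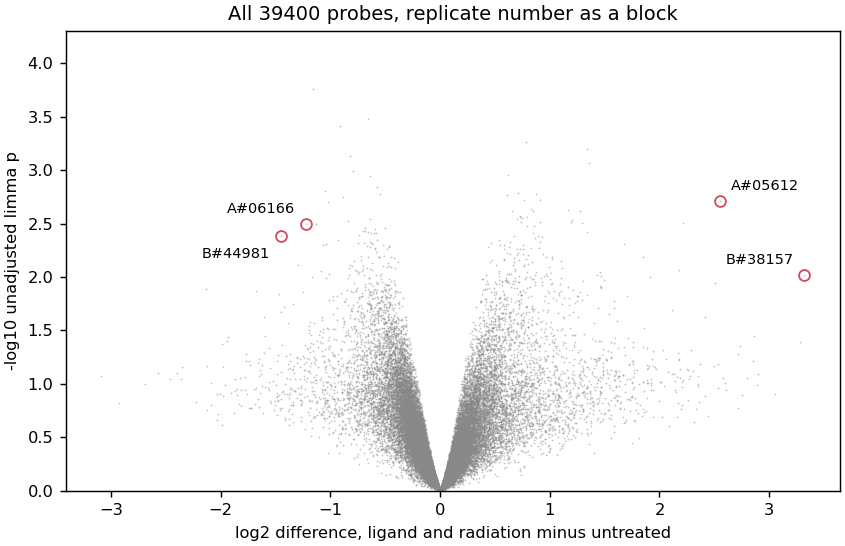
Each grey point is 1 of 39400 probes, with the log2 difference of cells given both treatments minus untreated cells on the x axis and the unadjusted limma p on the y axis (-log10 scale). The 4 named probes are ringed. More probes lie beyond 1 log2 unit to the right (672) than to the left (331), which turns round in deposited units (195 and 3382), and the widest differences do not have the smallest p-values.

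Large mean differences were found all the same, and after normalization more of them were upward, whereas in deposited units more were downward. After both treatments 672 probes were over 2-fold higher (1.71% of all probes) and 331 over 2-fold lower (0.84%). With intensities as deposited the counts were 195 higher and 3382 lower. The excess was widest among bright probes. In the brightest 25% by mean level, 373 probes were higher and 140 lower by more than 2-fold. In the dimmest 25% the counts were 103 and 55. The sign alone leaned the other way. The 3 pair differences were all positive for 3532 probes (8.96%) and all negative for 5073 (12.9%). Groups that did not overlap also leaned to lower values, with all 3 treated values above all 3 untreated values for 352 probes (0.893%) and below them for 665 probes (1.69%). Both conditions together, over 2-fold and no overlap, were met by 32 higher (0.0812%) and 26 lower (0.066%) probes.

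Number 2 supplied most of the wide differences. Among the 1003 probes with a mean difference over 2-fold, the widest of the 3 pair differences was that of number 2 for 752 probes (75.0%), of number 1 for 165 and of number 3 for 86. With number 2 left out, 345 probes were over 2-fold higher and 190 lower. The counts were 1236 and 763 without number 1, and 1337 and 774 without number 3. Within the pair of number 2 alone, 5076 probes (12.9%) differed by more than 2-fold. In number 1 there were 1437 (3.65%) and in number 3 there were 1547 (3.93%). After normalization higher probes exceeded lower ones in each pair, at 794 and 643 in number 1, 2805 and 2271 in number 2, and 893 and 654 in number 3.

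The extra spread of number 2 grew with probe brightness. On letter A the standard deviation of its log2 differences was 0.61 in the dimmest 25% of probes and 1.43 in the brightest. Number 1 was at 0.55 and 0.51 in the same bins, and number 3 at 0.60 and 0.59. On letter B number 2 had 0.69 in the dimmest and 1.04 in the brightest bin, while the brightest bin was at 0.45 in number 1 and 0.47 in number 3. The widening with brightness was seen in number 2 on both letters, while in the other numbers the brightest bin had a spread close to that of the dimmest.

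**Figure D2:**
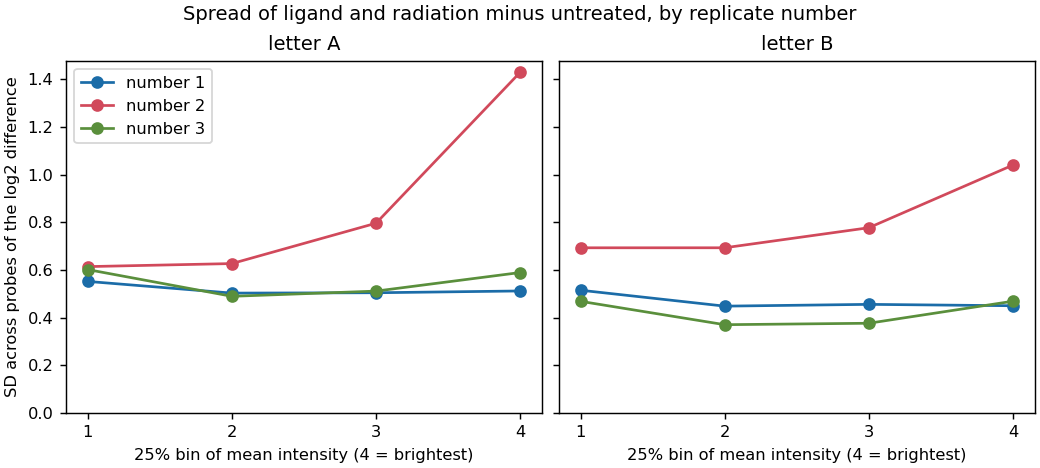
Standard deviation across probes of the log2 difference, ligand and radiation minus untreated, in 4 bins of mean intensity, each with 25% of the probes (x axis, 4 is brightest), for each replicate number and letter. Number 2 climbs to 1.43 on letter A and 1.04 on letter B in the brightest bin, while numbers 1 and 3 stay between 0.37 and 0.60.

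The untreated arrays of number 2 lay farther from the other numbers than the treated ones did. For each probe over 2-fold different in number 2, both arrays of that pair were set against the mean of the treated and untreated arrays of numbers 1 and 3. The untreated array was the farther one for 3774 of 5076 probes (74.3%), with a median distance of 1.28 log2 units, against 0.48 for the array of cells given both treatments. The share was 79.1% on letter A and 67.7% on letter B. In number 1 the untreated array was the farther for 42.8% of its 2-fold probes and in number 3 for 55.2%. On letter A the treated array of number 2 had a Spearman correlation across probes of 0.836 with the untreated array of number 1, whereas the untreated array of number 2 had 0.662 with that same array. On letter B the values were 0.777 and 0.771, close to each other. With the untreated array of number 3, the treated array of number 2 correlated at 0.561 on letter A and 0.595 on letter B. The untreated array of number 2 was at 0.420 and 0.406. The untreated and ligand-only arrays of number 2 correlated at 0.931 on letter A and 0.919 on letter B. Without the untreated arrays of number 2, limma passed 0 probes and left 924 at an unadjusted p under 0.05, while 391 probes were over 2-fold higher and 165 lower.

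A set of 10 human control sequences was printed on both letters, with 6 copies of each per array, so each sample was read by 2 arrays. The arrays of numbers 1 and 2 list them, and their identities are not given in the files. Levels are log2 intensities relative to the median probe of the same array, taken as the median over copies. In number 2 the difference between cells given both treatments and untreated cells was nearly the same on both letters. It ran from -2.11 to 3.40 on letter A and from -2.12 to 2.49 on letter B. All 10 sequences had the same sign on both letters, the median gap between letters was 0.08 log2 units and Pearson's r was 0.977 over the 10 sequences. For 6 of the 10 the difference exceeded 2-fold on both letters. In number 1 the differences ran from -1.32 to 0.34 on letter A and from -0.93 to 0.62 on letter B, with the same sign for 8 of 10, a median gap of 0.24 and r = 0.766. Among copies on 1 array the median standard deviation was 0.38 log2 units in number 2 and 0.52 in number 1. These correlations describe 10 sequences that share 2 samples and are given without a test.

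The same sequences did not keep their differences from one number to the next. Between the mean differences of numbers 1 and 2, Pearson's r was 0.212 over the 10 sequences, and 6 had the same sign. The sequence with the widest mean difference upward, chosen after its values were seen, shows this. In number 2 its level was 3.42 and 2.60 (letters A and B) after both treatments, against 0.03 and 0.11 in untreated cells. In number 1 it was 2.98 and 2.62 after both treatments, against 3.31 and 2.76 in untreated cells. The low values are thus those of untreated number 2, while untreated number 1 was as high as the treated samples. In number 2 it was at 2.81 and 2.71 after radiation alone and at 0.13 and 0.21 after the ligand alone, so both irradiated samples of that number were high and both others low.

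A second human control sequence had one sign on all 4 array pairs. Its level after both treatments was 4.12 and 3.50 in number 1 and 4.02 and 3.32 in number 2, against 5.04 and 4.43 in untreated number 1 and 5.47 and 4.43 in untreated number 2. The log2 differences were -0.92 and -0.93 in number 1 and -1.45 and -1.11 in number 2, so the treated values were the lower on every array pair and the groups did not overlap within a letter. It was chosen from the 10 after its values were seen. Radiation alone gave 4.47 and 2.81 in number 1 and 3.23 and 3.21 in number 2. The ligand alone gave 5.01 and 4.38 in number 1 and 5.51 and 4.53 in number 2. The low level was thus not particular to the joint treatment. In the 2 groups compared, the standard deviation among its 6 copies was 0.80 to 1.16 log2 units on letter A and 0.36 to 0.48 on letter B. In all, 4 human control sequences were lower on all 4 array pairs, 1 was higher on all 4 and 5 were mixed. Number 3 does not list these spots, and 2 pairs cannot give an exact sign-flip permutation p below 0.5, so no test was made.

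Plant control sequences, which have no human target and serve as a floor for cross-hybridization, moved little. The 13 sequences had mean log2 differences from -0.12 to 0.27, and 12 were mixed in sign over the 4 array pairs. As a class their median spot stood at 59.7% and 65.8% of the median probe on letter A and 63.7% and 72.7% on letter B after both treatments (numbers 1 and 2), against 55.1% and 72.7% on letter A and 62.8% and 70.7% on letter B in untreated cells. The ratio of treated to untreated had a geometric mean of 1.01, from 0.904 to 1.08. The spread of the human controls in number 2, with a standard deviation of 1.58 log2 units on letter A and 1.39 on letter B, was thus not shared by the plant controls, at 0.15 and 0.16.

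**Figure D3:**
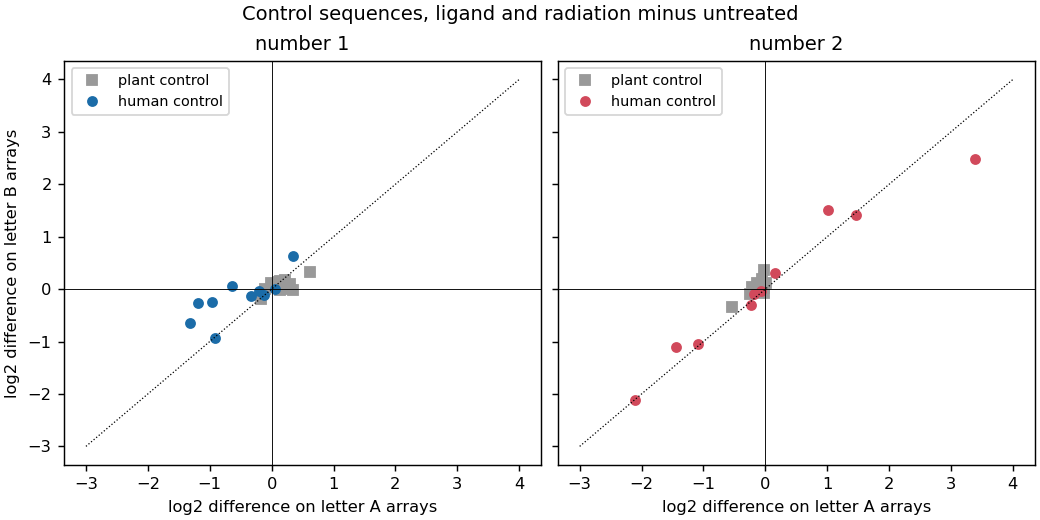
Log2 difference of each control sequence, ligand and radiation minus untreated, on letter A arrays (x axis) against letter B arrays (y axis), in replicate numbers 1 and 2. The dotted line marks equal values. Human controls of number 2 spread along it from -2.11 to 3.40 on letter A, those of number 1 from -1.32 to 0.34, and plant controls stay within 0.62 of 0.

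Across all probes, too, the pair differences of one number did not as a rule keep their sign in another. On letter A the Spearman correlation of the log2 differences was 0.03 between numbers 1 and 2, -0.19 between numbers 1 and 3 and -0.03 between numbers 2 and 3, over at least 19676 probes. On letter B it was 0.04, -0.11 and -0.12. These are descriptions across probes, which share arrays and are not independent replicates. Of the probes over 2-fold different in both of 2 numbers, 143 of 278 had the same sign for numbers 1 and 2, 38 of 88 for numbers 1 and 3, and 146 of 336 for numbers 2 and 3. The 278 were 19.4% of the list of number 1 and 5.50% of the list of number 2. The 88 were 6.12% of the list of number 1 and 5.74% of that of number 3, and the 336 were 6.62% of that of number 2 and 21.8% of that of number 3. Over all probes, 3.65%, 12.9% and 3.93% were over 2-fold different in numbers 1, 2 and 3. Each overlap share was thus above that of all probes in the other number, while the signs agreed only as counted above. A 2-fold difference of one sign in all 3 pairs was found for 5 of 39400 probes, all higher after both treatments, and for 0 lower.

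The differences varied with place in the spot list. The list was cut into 48 runs of 420 consecutive spots, and the median log2 difference was taken within each run. List order was not matched to positions on the array, so position and the set of probes in a run cannot be told apart. On letter A the run medians of number 1 ran from -0.55 to 0.77, and differences between runs held 32.5% of the variance of that pair. The share was 5.88% in number 2 and 19.5% in number 3. On letter B it was 7.40%, 8.92% and 37.8% in numbers 1, 2 and 3, and the run medians of number 3 spanned 1.06 log2 units. The negative correlation between numbers 1 and 3 on letter A, -0.19, became 0.02 after each run had been centred on its median. With runs centred limma passed 0 probes, and the count at an unadjusted p under 0.05 was 1758. The standard deviation of the pair differences fell only to 0.82 in number 2 with runs centred, against 0.88 without, so most of the wider spread of that number was within runs.

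**Figure D4:**
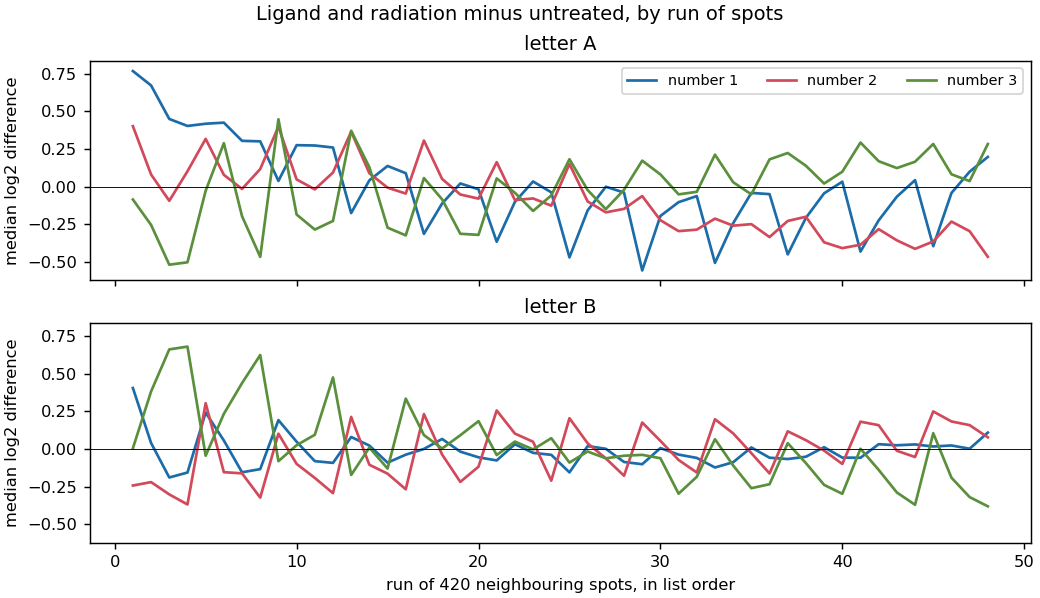
Median log2 difference, ligand and radiation minus untreated, in each of 48 runs of consecutively listed spots (x axis, list order). The 3 replicate numbers are shown on letters A and B. On letter A number 1 starts at 0.77 and reaches -0.55, and on letter B number 3 runs between 0.68 and -0.38, each with its own course.

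Because the probes have no gene names, 4 are given as examples, the widest difference in each direction on each letter among those at an unadjusted p below 0.01 whose 3 pair differences agreed in sign. That rule held for 96 higher probes (0.244%) and 82 lower probes (0.208%). None passed the test, and the limma adjusted p of each was 0.887. The rule itself selects agreeing signs and intervals that exclude no change. Taking the widest also favours overestimated sizes and groups that do not overlap, so these features of the examples are no support for a change. The choice depends on the block, since without it 1 of the 4, obshum40K:B#38157, had an unadjusted limma p under 0.01. No sequence of any probe is in the files used here, so none is shown.

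Probe obshum40K:A#05612 was the widest higher probe on letter A. Its normalized log2 intensity in numbers 1, 2 and 3 was 11.37, 10.70 and 12.53 after both treatments, against 9.03, 7.36 and 10.55 in untreated cells. Every treated value was above every untreated one, and number 3 was the highest in both groups. The log2 difference was 2.55 (standard error 0.60), with a 95% interval from 1.21 to 3.89, a 5.86-fold higher level, with pair differences of 2.34, 3.34 and 1.97. Without the replicate block the standard error was 1.31 and the interval, from -0.34 to 5.44, held 0. As deposited, its intensity was 4761, 1153 and 2851 after both treatments, against 1280, 392 and 1116 untreated. The 392 of untreated number 2 lay below the median plant control of that array, 476. It is a bright probe, above 94.6% of probes on its letter by mean level, and is 1 of the 5 probes over 2-fold higher in all 3 pairs. Radiation alone gave a mean of 10.94 ± 2.13 and the ligand alone 9.47 ± 2.38 (SD, n = 3 each), so the radiation samples overlapped those given both treatments. The departure from additivity of the 2 treatments was 0.10 log2 units with a standard error of 0.84, and limma's adjusted p for it was 0.996.

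Probe obshum40K:B#38157 had the widest difference of the 4, and number 2 carried it. Its values were 9.38, 12.41 and 8.33 after both treatments, against 6.38, 5.65 and 8.13 in untreated cells. The groups did not overlap, but in number 3 they differed by only 0.20 log2 units, while number 1 differed by 3.0 and number 2 by 6.76. The mean log2 difference was 3.32 (standard error 1.01), with a 95% interval from 1.03 to 5.61, and it was 1.60 without number 2. In untreated number 2 its intensity was 87.5 units, close to the 85.9 of the 95th percentile of empty spots on that array, against 5764 after both treatments. Untreated intensities in numbers 1 and 2, 134 and 87.5 units, lay below the median plant control of their arrays, 321 and 376. The size of the difference in those numbers is thus uncertain. The single treatments lay near the untreated level, at 7.31 ± 1.02 after radiation and 7.41 ± 0.77 after the ligand. Their intensities in numbers 1 and 2 were also below the median plant control. Radiation gave 89.6 and 76.3 units (plant medians 261 and 128), and the ligand 167 and 255 (plant medians 316 and 332). These means, and the departure from additivity they enter, thus rest partly on values below that floor. The departure from additivity was 2.04 with a standard error of 1.43 (limma adjusted p = 0.969).

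Probe obshum40K:A#06166 was the widest lower probe on letter A. It was at 7.24, 6.84 and 6.54 after both treatments, against 8.92, 7.85 and 7.53 in untreated cells, again without overlap. The log2 difference was -1.23 (standard error 0.31), with a 95% interval from -1.92 to -0.53. The pair differences were -1.68, -1.01 and -0.99, so number 1 was the widest. It is a dim probe, above only 6.25% of the probes of its letter by mean level. Its treated intensities in numbers 1 and 2, 278 and 119.5 units, lay below the median plant control of their arrays, 330 and 163. The untreated intensities, 1161 and 521, lay above the plant medians of 373 and 476. The size of the difference in those numbers is thus uncertain. Radiation alone, at 7.01 ± 0.13, and the ligand alone, at 7.25 ± 0.57, had means closer to that of both treatments, 6.87 ± 0.35, than to that of untreated cells, 8.10 ± 0.73 (SD, n = 3 each). After radiation alone the intensities in numbers 1 and 2, 223 and 138 units, lay below the plant medians of 380 and 174. Number 3, on the dim array, was at 14 units. After the ligand alone, 341 units in number 1 lay below the plant median of 368, and 421 in number 2 above 402. The departure from additivity was 0.71 with a standard error of 0.44 (limma adjusted p = 0.969).

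Probe obshum40K:B#44981 was the widest lower probe on letter B. Cells given both treatments gave 6.80, 5.93 and 8.07, against a narrow range of 8.39, 8.43 and 8.32 in untreated cells. The treated values were all lower, with number 3 close to the untreated range. The fitted log2 difference was -1.45, from pair differences of -1.59, -2.50 and -0.25, and -0.92 without number 2. The treated intensities of numbers 1 and 2, 127 and 37.7 units, were not above the 95th percentile of the empty spots of their arrays, 145.9 and 56.5, against 556 and 582 units in untreated cells. Those treated levels are upper limits, so the size of the difference in numbers 1 and 2, and with it the place of this probe as the widest, was not measured. Single treatments gave 7.98 ± 0.55 after radiation and 7.63 ± 0.78 after the ligand. Of their intensities in numbers 1 and 2, only that of radiation number 2, 134 units, lay above the median plant control, 128. The departure from additivity was -0.30 with a standard error of 0.53 (limma adjusted p = 0.978).

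**Figure D5:**
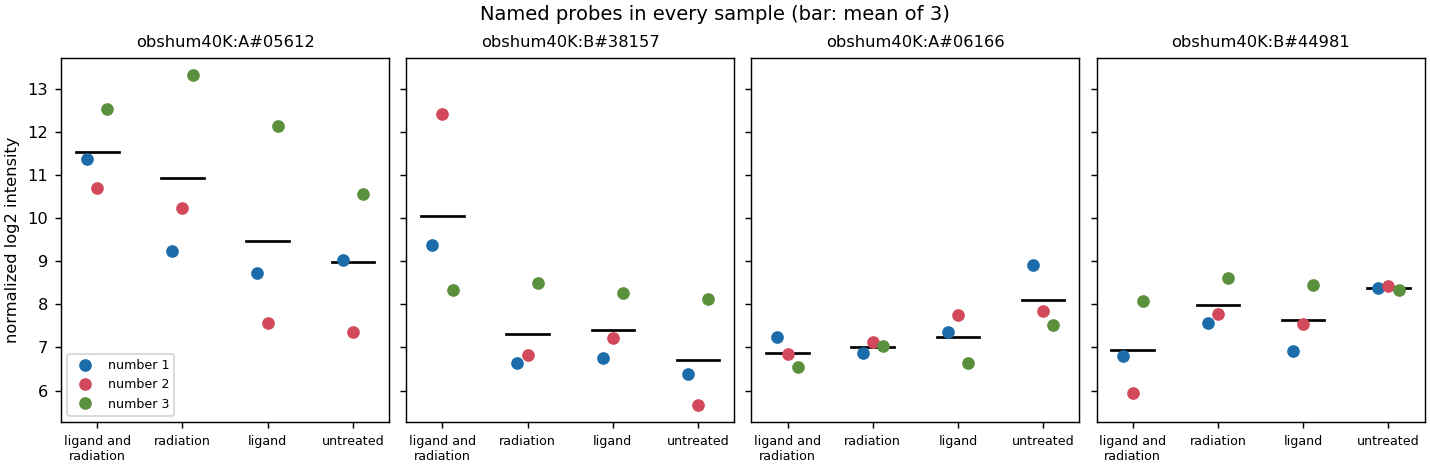
Normalized log2 intensity (y axis) of the 4 named probes in every sample of the 4 treatments. Points are samples, coloured by replicate number, and bars are means of 3. In each panel the ligand and radiation points lie wholly to one side of the untreated points, which the choice of these probes favours. For obshum40K:B#38157 number 2, at 12.41, stands far above the other treated samples.

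Dim probes supplied much of the list these came from. Of the 178 probes that met the rule, 90 were in the dimmest 25% of probes and 29 in the brightest 25%, with 37 and 22 in the bins between. The share of probes at an unadjusted p under 0.05 was 5.87% in the dimmest bin and 3.91% in the brightest. Without the dimmest 25% limma passed 0 probes, and the count at an unadjusted p under 0.05 was 1091. The 100 brightest probes of each letter had a median log2 difference of 0.19 on letter A, from -2.02 to 2.85, and of -0.01 on letter B, from -1.07 to 3.05. Of these 200 probes, 2 were higher and 8 lower at an unadjusted p under 0.05. Among all probes 1.97% were higher and 2.17% lower at that p, 4.14% together. The total among these bright probes was near that share.

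Whether the joint treatment differed from the sum of the ligand alone and radiation alone was tested as the departure from additivity. With the replicate block limma passed 0 of 39400 probes (0%), and the unadjusted p was under 0.05 for 1543 (3.92%).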

How the data were processed

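The deposited arrays hold spot intensities on a linear scale, while the sources used here do not give the scanner, software, background step or any scaling. Numbers 1 and 2 have every spot listed, with 192 empty ones per array, and number 3 has probes alone, which were placed in runs by identifier. The 12 arrays of each letter were quantile normalized after a log2 transform, with no offset. Letters were fitted separately in limma 3.58.1 (lmFit, then eBayes; R 4.3.3), with the 4 treatments and replicate number as a fixed block. The Benjamini-Hochberg adjustment ran over the p-values of both letters. Missing values dropped a sample from the fit of that probe alone. Each probe needed 2 values per group, which left out 0 probes.

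The comparison was set as pairs by the replicate numbers that the titles share. Arrays of one number and different treatments deviated together from their group means, with correlations of at least 0.221 (median 0.667) on letter A and 0.200 (median 0.602) on letter B. Arrays of different numbers reached 0.394 on letter A and 0.348 on letter B, above the correlation between the treated and untreated arrays of number 2, 0.262 on letter A and 0.202 on letter B, so the number does not set every pair apart. These correlations describe the pairing and were not the reason for it.

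The authors also deposited log2 values for the probes measured on all arrays. These kept the rank order of each array's intensities (Spearman 1 for every column). Their medians ran from 7.69 to 8.55 on letter A and from 8.05 to 8.93 on letter B, the step that made them is unknown, and they served as an alternative.

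Named probes were the widest difference per direction and letter among those at an unadjusted p below 0.01 whose 3 pair differences agreed in sign. Members, tests and this rule were chosen with earlier results of these data known. Gene and cell marker lists could not be matched to probes. The fit was tested on simulated data. Alternatives covered the block, the samples in the fit, normalization, spot runs, an offset of 50, and dim or incomplete probes. They also covered array weights, the estimate of spread and adjustment within a letter. Each sample of the compared groups and each whole number was left out in turn, after normalization with all arrays. No sample of the ligand alone or radiation alone was left out by itself. Precision is limited by the number of arrays. Figures were drawn with matplotlib 3.10.9.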

Additional observations from a re-analysis of the deposited data

Results flagged for a closer look

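Empty spots lie outside the comparison of probes, and they stood out because their level was above that of the untreated arrays in all 4 array pairs that list them. Relative to the median probe, the median empty spot was at 5.55% and 6.75% on letter A (numbers 1 and 2) and at 7.95% and 10.7% on letter B after both treatments, against 3.07% and 4.16% on letter A and 5.80% and 5.59% on letter B in untreated cells. The ratio of treated to untreated had a geometric mean of 1.67, from 1.37 to 1.92. The 4 ratios come from 2 sample pairs, and no test was made. In deposited units the 2 numbers went opposite ways: the empty spots were at 30.7 and 34.5 units after both treatments in number 1, against 20.8 and 29.7 untreated, and at 16.8 and 20.03 after both treatments in number 2, against 27.2 and 29.7 untreated.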

How the results depend on the processing

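The count of 0 probes was refitted under 25 settings, and 22 gave 0. With values as deposited 10 probes passed, 1 of them among the 4 named (obshum40K:B#38157, adjusted p = 0.0393). With single samples of the compared groups or whole numbers left out, the count ran from 0 to 4. It was above 0 without either the treated or the untreated arrays of number 3, and 0 probes were shared by those fits. The cause was not tested. The number of probes at an unadjusted p under 0.05, 1630 as reported, was 211 with no replicate block, 714 with the block in a fit of only the compared groups, 712 when these were also normalized alone and 103 for them without the block. It was 1031 on the authors' log2 values, which were chosen as an alternative after seeing the data, and 924 to 3111 with samples left out. Pairing changed no call, since the count of passing probes was 0 with and without the replicate block, but without it obshum40K:A#05612 had an unadjusted p of 0.0778 and an interval that held 0. Of 97 refits of the named probes 1 passed and 0 turned sign. The mean spread of the pair differences was 0.62 log2 units, with a standard deviation of 0.22 over numbers, and moved by less than that under each setting tried. That is a loose limit, since the 0.22 came from number 2. Without number 2 the mean was 0.49 and the standard deviation 0.006. In deposited units the ratios of treated to untreated were 0.919 for empty spots, 0.554 for plant controls and 0.635 for human controls, against 1.67, 1.01 and 1.15 relative to the median probe, because treated arrays were dimmer. The human control ratio was 0.912 as a mean of log2 values. Changes under about 1.4-fold were within the median confidence interval of the fit with the replicate block.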
